A study of Mus musculus with 30 samples.

Results

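Spinal cord and forebrain of the same mouse embryos were compared late in gestation, at E18.5 (embryonic age in days), on 8 of the 30 arrays of the series. The members were taken from the sample titles: 4 spinal cord arrays and 4 forebrain arrays, 1 of each from embryos 1 to 4. Embryos 1 and 2 are labelled Olig2 -/- (called null here) and embryos 3 and 4 Olig2 +/- (heterozygous). The series' design text names the same tissues Olig1/2-/- and Olig1/2+/-, so the labels differ on whether Olig1 is deleted too, and no wild-type tissue was among these arrays. All 4 embryos are on a mixed Swiss and C57BL/6J background. The remaining arrays hold cultured neurosphere lines and were not used for the comparison.

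Background to the comparison is the regional plan of the nervous system. Hox genes, which code for homeodomain factors arranged in chromosomal clusters, are active from the hindbrain downwards and give segments of the hindbrain and spinal cord their identity, whereas factors such as Emx2, Lhx2 and the Dlx family pattern the forebrain. The spinal cord uses glycine as well as GABA for fast inhibition, carries motor neurons and dorsal horn sensory relay neurons, and matures earlier than the cerebral cortex, where neurons are still being born late in gestation. Astrocytes and oligodendrocytes arise from the same progenitor zones after neurons, and Olig2 is a basic helix-loop-helix factor needed for motor neurons and oligodendrocytes.

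Values are MAS5 signals, linear probe set intensities that were scaled on each array to a trimmed mean of 500. In this text 4 values of a gene always run from embryo 1 to embryo 4, so the first pair is null and the second heterozygous. Differences are spinal cord minus forebrain on the log2(signal + 16) scale, from a limma fit with the embryo as a block, and a gene is said to have risen (higher in spinal cord) or fallen (lower) where its Benjamini-Hochberg adjusted p over all tested genes was under 0.05. An error after ± is the standard error (SE) of the fit over the 4 embryos. The added 16 understates the change of dim genes. Of 12417 genes tested, 5015 (40.4%) passed: 2733 (22.0% of those tested) rose and 2282 (18.4%) fell. The count of each gene list below is to be read beside these shares of 22.0% and 18.4%. The median difference over the tested genes was 0.000858. The rises were the larger changes: 796 genes rose and 290 fell by at least 1 log2 unit, and 178 rose and 56 fell by at least 2. All 4 embryos showed the rise of 2640 of the 2733 genes and the fall of 2184 of the 2282.

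Correlations between arrays were taken over the 12417 tested genes, with 1 probe set per gene, on the log2 scale. Arrays of 1 tissue correlated at 0.957 to 0.962 (forebrain) and 0.956 to 0.963 (spinal cord). Arrays of different tissues correlated at 0.864 to 0.876, whether or not they came from the same embryo. The median signal of an array was 199.8 to 217.4. The 3' over 5' log2 ratio of the Gapdh control probe sets was -0.22 to -0.07 in forebrain and 0.04 to 0.37 in spinal cord, and that of the actin controls 0.19 to 0.31 and 0.35 to 0.57, so these measures of RNA integrity did not overlap between the tissues. Their part in the differences was not tested. Xist was high on all 8 arrays (20965 to 24806). The p-values rest on the spread of the tissue difference among these 4 embryos, with 3 residual degrees of freedom. That spread was moderated towards the spread usual for genes of similar mean signal, a trend fitted over all tested genes that counted for 7.86 degrees of freedom. Genotype differences in the tissue difference are part of it. In whole tissue, fewer cells of a type and less RNA per cell cannot be told apart.

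Olig2, the gene deleted in the null embryos, read 179, 109, 269 and 519 in forebrain and 58.5, 23.8, 335 and 736 in spinal cord. In both tissues the null values were below the heterozygous ones, and the tissue difference had no call (-0.56 ± 0.39 SE, adjusted p = 0.279). Olig1 read 1686, 1889, 2187 and 1787 in forebrain and 2007, 1878, 3901 and 4068 in spinal cord, with no null array near 0. Olig1 rose slightly (0.56 ± 0.16 SE, adjusted p = 0.0151), with overlap between the tissues, and the call was lost without embryo 3 (adjusted p = 0.0653) and without embryo 4 (0.0755).

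The largest rise belonged to Hoxc8, a gene of the Hoxc cluster on chromosome 15, which read 8.1, 90.2, 46.5 and 49.1 in forebrain and 6598, 6540.2, 4339 and 4437 in spinal cord. The lowest spinal cord array was far above the highest forebrain array, and the difference was 6.57 ± 0.29 SE, adjusted p = 4.67e-08. Of the other 9 largest rises, 5 were Hox genes or a transcript of a Hox cluster: Hoxd3os1 (6.17), Hoxd10 (5.14), Hoxc10 (5.11), Hoxb6 (5.03) and Hoxb3 (4.84), with Hoxd3os1 annotated as an opposite strand transcript of Hoxd3. The remaining 4 were neuronal: Lamp5 (6.18 ± 0.17 SE), a LAMP family membrane protein of neurons; Sncg (5.50 ± 0.40 SE), gamma-synuclein of peripheral sensory and motor neurons; Slc6a5 (5.39 ± 0.22 SE), the neuronal glycine transporter; and Vamp1 (4.86 ± 0.23 SE), a synaptic vesicle SNARE protein. Lamp5 read 32.8, 61.0, 26.4 and 26.7 in forebrain and 4141, 3625, 3497 and 3526 in spinal cord, and Vamp1 109, 60.7, 60.8 and 209 in forebrain and 3712, 2738, 3699 and 3085 in spinal cord. The 10 largest falls were Ttr (-6.89), the thyroid hormone carrier made by the choroid plexus, and 9 forebrain factors or their antisense transcript: Dlx1 (-6.22), Lhx6 (-5.86), Tbr1 (-5.72), Fezf2 (-5.08), Lhx2 (-4.67), Emx2 (-4.11), Dlx2 (-4.06), Lhx8 (-4.03) and Dlx1as (-3.76). For each of these 20 genes the 4 spinal cord values lay outside the range of the 4 forebrain values. The ranking holds for the 1 probe set used per gene, that of highest mean. Unused probe sets of Hoxa9 (6.35), Hoxa5 (5.28), Ebf3 (5.02) and Col1a2 (4.93) rose by more than Vamp1 and Hoxb3. Those of Igfbpl1 (-4.095) and Eomes (-4.059) fell by more than Lhx8 and Dlx1as.

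**Figure D1:**
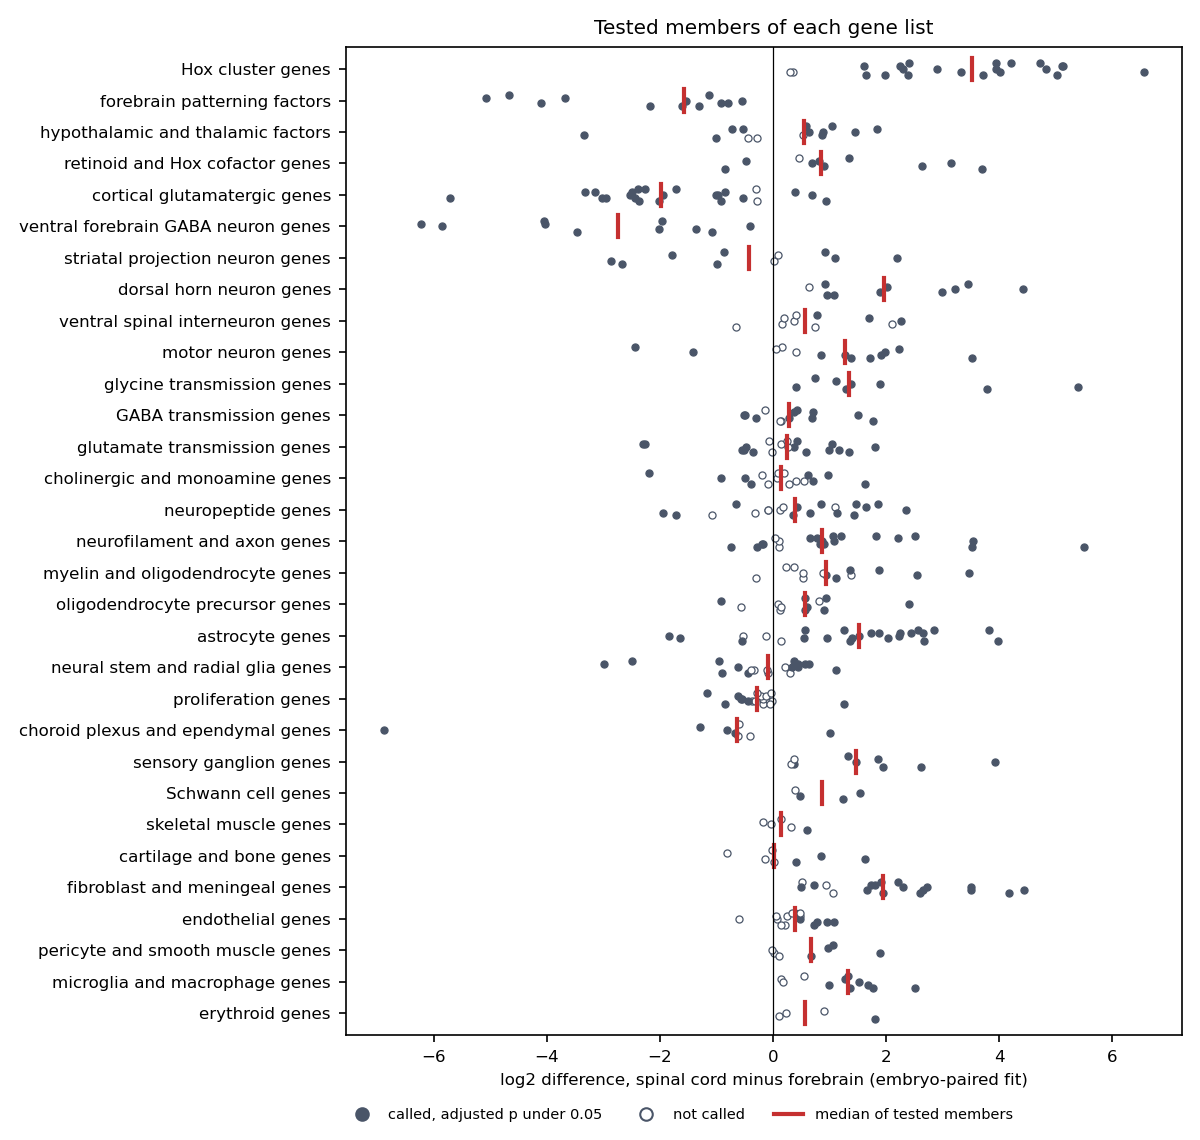
Log2 differences (spinal cord minus forebrain, horizontal axis) of the tested members of 31 gene lists. Each point is 1 gene, filled where the adjusted p was under 0.05, and the red bar is the median of the list. Hox, dorsal horn, glycine, astrocyte and fibroblast lists lie mostly to the right of 0, and the 3 forebrain lists of patterning, cortical and ventral GABA neuron genes mostly to the left.

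The tested Hox cluster genes were higher in spinal cord almost throughout. Of 33 with a probe set, 22 were tested, of which 20 rose and none fell, with a median difference of 3.52; 22.0% of all tested genes rose. Only 6 of the 22 reached the array median on at least 2 arrays of each tissue. Most thus passed the filter through the spinal cord, and their count is not independent of the direction. Over all 33, tested or not, the median was 2.25. Among untested, dim members Hoxd13 (-0.59) and Hoxb13 (-0.34) were lower in spinal cord, and Hoxa2 (1.97) and Hoxd1 (0.85) higher. Among the genes of the 3' end of the Hoxa cluster on chromosome 6, Hoxa3 read 50.1, 8.2, 101 and 40.6 in forebrain and 412, 443, 437 and 356 in spinal cord (2.90 ± 0.42 SE, adjusted p = 0.000225), and Hoxa2, which was too dim to be tested, 10.2, 59.5, 9.2 and 118 in forebrain and 139, 211, 178 and 212 in spinal cord. Hoxa10 (3.72) and Hoxc6 (1.98) were among the rises of smallest p, and Hoxc6 kept a forebrain signal of 390.3, 489.5, 441 and 462 against 1929, 1923, 1683 and 1666 in spinal cord. The members without a call were Hoxa11 (196 to 295 in forebrain and 201 to 492 in spinal cord) and Hoxb7 (132 to 214 in forebrain and 202 to 270.1 in spinal cord).

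Hox genes of numbers 9 and 10 mark the lower levels of the cord. Hoxd10 read 75.7, 8.2, 23.2 and 52.8 in forebrain and 2369.8, 591, 2947 and 2119 in spinal cord, and Hoxc10 16.3, 11.2, 79.9 and 49.3 in forebrain and 1794, 1164, 2129 and 1703 in spinal cord. In both the spinal cord of embryo 2 was the lowest of the 4, as it was for Hoxd9 (1694, 1194, 2401 and 1844) and Hoxa10 (1304, 992, 1621 and 1094). It was also the lowest for Hoxc9 (1158, 808, 1147 and 909) but not for Hoxa9 (925, 876, 794 and 1134), Hoxb9 (1146, 1372, 1411 and 1568), Hoxc8 or Hoxb6 (1659.5, 1894, 2039 and 1886). The Hoxa9 probe set used had a mean of 288 in forebrain and a difference of 1.64. Another had means of 25.2 in forebrain and 3165 in spinal cord (6.35). Still further along the clusters, Hoxa13, Hoxb13, Hoxc13 and Hoxd13 were too dim to be tested. The summed signal of the 33 Hox genes was 2816 to 3979 in forebrain and 26996 to 30518 in spinal cord.

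**Figure D2:**
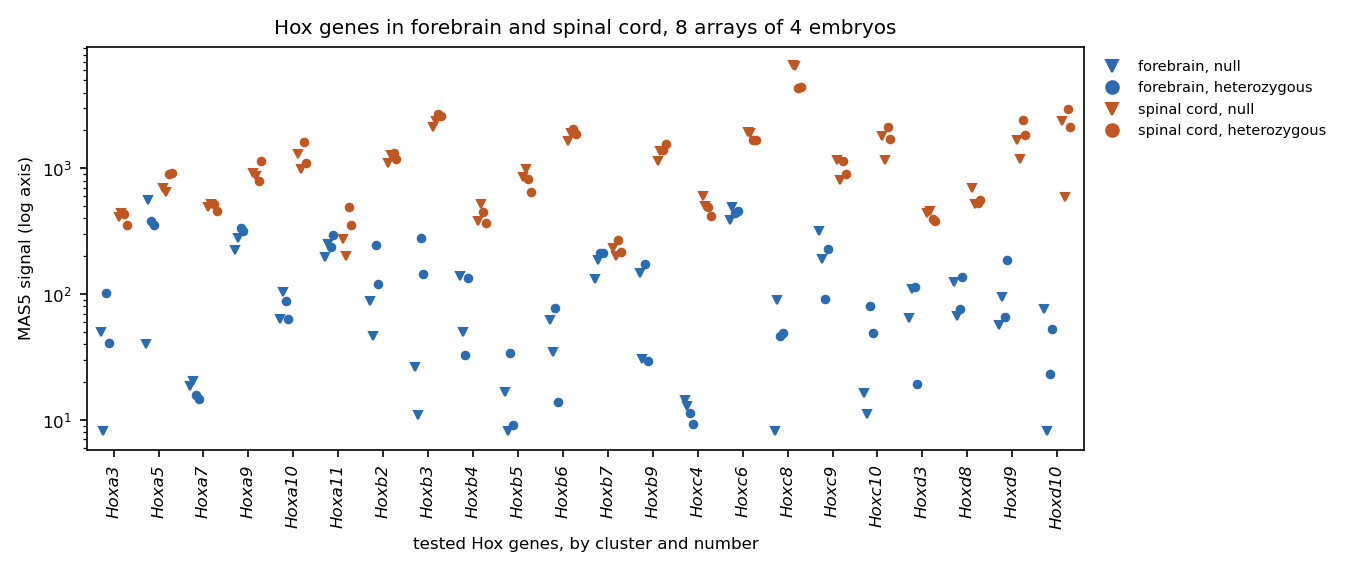
MAS5 signal (log axis) of the 22 tested Hox genes on the 8 arrays, by cluster and number. Blue is forebrain, orange spinal cord, triangles null and circles heterozygous embryos. Hoxa11 and Hoxb7 are the genes whose tissues overlap.

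Retinoid genes and Hox cofactors rose in part, and a link to the Hox rises was not tested. Retinoic acid made in the trunk activates Hox genes, and Pbx and Meis proteins bind DNA together with Hox proteins. Aldh1a2, the enzyme that makes retinoic acid, read 18.7, 32.2, 171 and 15.7 in forebrain and 679.8, 669, 610.1 and 924 in spinal cord (3.70 ± 0.44 SE, adjusted p = 6.10e-05). The retinoic acid binding proteins Crabp1 (2.65) and Crabp2 (3.15) rose, as did the cofactors Meis1 (1.35) and Pbx3 (0.90). Meis2, another Hox cofactor that is also a factor of the striatum, fell (-0.84 ± 0.08 SE, adjusted p = 7.32e-06; 4557 to 4661 in forebrain and 2233 to 2838 in spinal cord). Rarb, a retinoic acid receptor, fell by a small step (-0.47 ± 0.14 SE, adjusted p = 0.0209) with overlapping tissues, and without embryo 1 its adjusted p was 0.053, without embryo 2 0.102 and without embryo 3 0.0605. Rara was too dim to be tested. Over the list 7 of 10 tested genes rose and 2 fell, or 1 without embryo 1, 2 or 3.

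Every tested forebrain patterning factor fell: 12 of 12, with a median of -1.57, where 18.4% of all genes fell. Emx2, which patterns the hippocampus and caudal cortex, read 596, 592, 586 and 629 in forebrain and 41.0, 5.2, 6.2 and 44.1 in spinal cord (-4.11 ± 0.41 SE, adjusted p = 1.45e-05). Lhx2, a selector gene of the cortical field, read 2035, 2385, 2190.0 and 2115 in forebrain and 49.2, 71.7, 61.8 and 107 in spinal cord, a 25.5-fold difference on the log2 scale used (-4.67). Fezf2, which specifies deep layer projection neurons, read 843, 1084, 758 and 889 in forebrain and 5.7, 16.6, 8.9 and 12.9 in spinal cord. All 4 spinal cord arrays lay below all 4 forebrain arrays for each of these. Otx2 (-3.68), of the anterior brain, fell as well. Six3 (-1.62) and Emx1 (-2.18) fell less, and Nr2f1 (-0.80), a factor of the caudal cortex, was 3076 to 3559 in forebrain and 1828 to 1993 in spinal cord. Otx1, Rax, Hesx1, Barhl2 and Nkx2-1 were too dim to be tested. Only 3 of the 12 reached the median on at least 2 arrays of each tissue. Most thus passed the filter through the forebrain, and their count is not independent of the direction. Over all 17 with a probe set the median was -1.31. Without embryo 1 or 2 the number that fell was 10, and without embryo 3 it was 11.

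Factors of the hypothalamus and thalamus divided. Of 14 tested, 7 rose and 4 fell, beside 22.0% and 18.4% of all tested genes. With any 1 embryo left out, 5 or 6 rose and 3 or 4 fell. Tcf7l2, a factor of thalamic neurons, read 1469, 3487, 1824 and 2776 in forebrain and 274, 214, 107 and 286 in spinal cord (-3.35 ± 0.22 SE, adjusted p = 7.71e-07), lowest in the forebrain of embryo 1. Otp, which specifies hypothalamic neuroendocrine cells and is also used by spinal interneurons, rose (1.44 ± 0.10 SE, adjusted p = 1.08e-06; 627 to 995 in forebrain and 2035 to 2364 in spinal cord). Zic1, a factor of dorsal neural tube, rose (0.64) while Zic4 of the same family fell (-0.54). Foxp2 fell (-1.01). Irx1 (0.88), Irx2 (1.84) and Irx5 (1.05), factors of the Iroquois family, rose. Sim1 had no call (-0.28, adjusted p = 0.213; 304 to 409 in forebrain and 233 to 368 in spinal cord), and Six6 was too dim to be tested (5.1 to 97.8 in forebrain and 4.5 to 24.6 in spinal cord).

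Glutamatergic neurons of the cortex were marked by 24 tested genes, of which 19 fell and 3 rose (median -1.98), and 19 of the 24 reached the median on at least 2 arrays of each tissue. Tbr1, the T-box factor of early-born deep layer neurons, read 1803, 1794, 1209.5 and 1652 in forebrain and 3.8, 4.2, 28.2 and 32.7 in spinal cord (-5.72 ± 0.33 SE, adjusted p = 3.29e-07). Zbtb18, a repressor needed for cortical neuron maturation, read 12989.6, 13275, 12946 and 12883 in forebrain and 1285, 1211, 1190.4 and 1459 in spinal cord (-3.33 ± 0.07 SE, adjusted p = 7.31e-10), the smallest p of the list. Neurod6, a basic helix-loop-helix factor of cortical pyramidal neurons, read 5083, 5222, 5056 and 5226 in forebrain and 525, 628, 689 and 638 in spinal cord (-3.03 ± 0.09 SE, adjusted p = 2.00e-09). The tissues did not overlap for any of these 3 genes. Mef2c (-3.15), Neurod2 (-2.38), Pou3f3 (-1.95) and Bcl11b (-2.45), the factor Ctip2 of corticospinal and striatal neurons, fell too. The upper layer factors Cux1 (-0.31, adjusted p = 0.0903) and Cux2 (-0.29, 0.107) had no call on their probe sets of highest mean. Their probe sets disagreed: other sets of Cux1 gave -1.06 to 0.22, and those of Cux2 gave -0.80 and 0.22. The members that rose were Nrn1 (0.93), Cdh8 (0.70) and Rorb (0.39), which are also made by neurons outside the cortex.

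The promoter windows of genes that moved together were searched for 2 letter patterns, TAATTA, the core to which many homeodomain proteins bind, and TGATTNAT, a pattern of paired Hox and Pbx proteins, on both strands, in the 250 bases before each RefSeq gene start (GRCm38.p6). TAATTA is its own reverse complement, and a match of each pattern can share bases with the other. TAATTA was in 4.84% of all 32851 windows, in 2.47% of the 809 windows of genes that rose by at least 1 and in 4.29% of the 326 of genes that fell by at least 1. TGATTNAT was in 2.82%, 1.85% and 0.613%. Windows were found for 610 of the 796 rises and 238 of the 290 falls. Of 8 windows of the 10 largest rises 1 held TGATTNAT and 0 held TAATTA, and of 11 windows of the 10 largest falls 1 held TAATTA and 0 held TGATTNAT. These 2 windows, of genes whose values carry the regional difference, are shown with the pattern in capitals. Tbr1 holds TAATTA 2 times, ending 27 and 12 bases before the start (chr2:61804203-61804452, plus strand). Slc6a5 holds TGATTNAT once, ending 85 bases before the start (chr7:49910049-49910298, plus strand). A match describes letters only.
Tbr1: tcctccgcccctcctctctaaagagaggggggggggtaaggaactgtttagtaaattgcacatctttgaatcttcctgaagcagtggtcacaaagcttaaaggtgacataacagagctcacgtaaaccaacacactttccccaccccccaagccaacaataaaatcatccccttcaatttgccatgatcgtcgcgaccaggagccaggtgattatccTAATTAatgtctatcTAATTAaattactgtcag
Slc6a5: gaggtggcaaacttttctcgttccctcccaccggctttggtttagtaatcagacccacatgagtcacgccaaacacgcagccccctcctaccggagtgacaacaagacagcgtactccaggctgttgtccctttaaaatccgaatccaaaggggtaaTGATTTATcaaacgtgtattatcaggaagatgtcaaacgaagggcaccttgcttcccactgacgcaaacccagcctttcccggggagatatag

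Inhibitory neurons of the ventral forebrain, which migrate into the cortex and striatum, were marked by 10 tested genes, all of which fell (median -2.75). Of these, 3 were at the median on at least 2 arrays of each tissue. Most thus passed the filter through the forebrain, and their count is not independent of the direction. Over all 13 with a probe set the median was -2.02. Dlx1, a homeodomain factor of these cells, read 1954, 1635, 1207 and 1332 in forebrain and 3.1, 5.2, 4.7 and 4.5 in spinal cord (-6.22 ± 0.31 SE, adjusted p = 9.25e-08). Dlx2, its neighbour on chromosome 2, read 1247, 1180.2, 946 and 927 in forebrain and 32.7, 61.2, 15.2 and 136 in spinal cord (-4.06), and Dlx5 1181, 957, 812 and 907 in forebrain and 100.2, 83.6, 118 and 21.3 in spinal cord (-3.48). Lhx6, of interneurons from the medial ganglionic eminence, read 2218, 1897, 1913 and 1821 in forebrain and 51.6, 6.1, 6.3 and 23.5 in spinal cord (-5.86). For these 4 genes no spinal cord array came near the lowest forebrain array. Dlx6os1 fell by 2.02 on the log2 scale. Lhx8, of cholinergic neurons of the basal forebrain, fell by 4.03, and Cxcr4, the chemokine receptor of migrating interneurons, by 1.36 and stayed at 499, 277, 415 and 202 in spinal cord.

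Striatal genes were less uniform: 5 of 10 tested fell and 3 rose, beside 18.4% and 22.0% of all tested genes. Drd1, the dopamine receptor of direct pathway neurons, read 509, 391, 644 and 481 in forebrain and 73.8, 10.7, 113 and 122 in spinal cord (-2.67 ± 0.34 SE, adjusted p = 0.000107). Ppp1r1b (DARPP-32), a phosphatase inhibitor of striatal projection neurons, fell (-2.86 ± 0.44 SE, adjusted p = 0.000388). Drd2, the receptor of the indirect pathway, did not pass the test (0.02 ± 0.13, adjusted p = 0.903) and read 445, 553, 702 and 664 in forebrain and 485, 604, 551 and 761 in spinal cord. The fork-head factor Foxp1 fell (-1.78), as did Gng7 (-0.87) and Pde10a (-0.99). Ebf1 (2.20), Rasgrp2 (1.10) and Zfp503 (0.93) rose, and Ebf1 is made by spinal neurons as well as by striatal ones.

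In the spinal cord, the dorsal horn holds the neurons that relay touch, pain and itch. Of 10 tested dorsal horn genes 9 rose and none fell (median 1.96), and 4 of the 10 reached the median on at least 2 arrays of each tissue. Most thus passed the filter through the spinal cord, and their count is not independent of the direction. Over all 14 with a probe set the median was 1.11. Lbx1, a homeodomain factor of dorsal interneurons, read 71.2, 136, 155 and 123 in forebrain and 882, 1149, 1052 and 1112 in spinal cord (2.99 ± 0.17 SE, adjusted p = 2.69e-07). Lmx1b, of excitatory dorsal neurons, read 65.4, 107, 119.7 and 80.7 in forebrain and 934, 1281, 1307 and 1157 in spinal cord (3.46 ± 0.16 SE, adjusted p = 6.43e-08). Skor1, a corepressor found with Lbx1, read 27.1, 89.3, 60.3 and 25.2 in forebrain and 1241, 1317, 1509 and 1199 in spinal cord (4.43 ± 0.24 SE, adjusted p = 1.89e-07). Every cord was above every forebrain for all 3 genes. Tlx3, of excitatory neurons, rose (2.02), and so did the inhibitory neuron genes Lhx1 (3.23) and Pax8 (1.90). Maf rose by a smaller step (1.08). Lhx5 had no call (0.65, adjusted p = 0.111).

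Of 10 tested factors and markers of ventral spinal interneurons, 3 rose and none fell, beside 22.0% of all tested genes that rose. Of the 10, 4 reached the array median on at least 2 arrays of each tissue. Shox2, of excitatory rhythm neurons, read 77.8, 134, 134 and 165 in forebrain and 499, 716, 338 and 307 in spinal cord (1.71 ± 0.29 SE, adjusted p = 0.000817). Pkd2l1, a channel of neurons that contact the cerebrospinal fluid, read 35.7, 107, 63.3 and 45.0 in forebrain and 512, 376, 288 and 253 in spinal cord (2.27 ± 0.37 SE, adjusted p = 0.000549). In both the null spinal cords of embryos 1 and 2 were above the heterozygous ones, and the tissues did not overlap. Tal1 rose (0.78 ± 0.25 SE, adjusted p = 0.0275), with an adjusted p of 0.0919 without embryo 1 and 0.12 without embryo 2. Nkx6-1, a factor of ventral progenitors, had no call (2.11, adjusted p = 0.0858) although its tissues did not overlap (7.5 to 30.5 in forebrain and 35.9 to 251 in spinal cord). The number that rose was 2 without embryo 1 or 2 and 5 without embryo 3. En1 and Evx1 were too dim to be tested (28.9 to 51.0 in forebrain and 21.4 to 124 in spinal cord for En1, 29.4 to 125 in forebrain and 48.7 to 159 in spinal cord for Evx1).

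Most tested genes of the motor neuron list rose, but a pair of factors fell and Chat had no call. Isl2 differed by 0.05 (means 358 in forebrain and 370 in spinal cord). Of 13 tested, 8 rose and 2 fell, beside 22.0% and 18.4% of all tested genes. Of the 13, 8 reached the array median on at least 2 arrays of each tissue. Chat, the enzyme that makes acetylcholine, did not pass the test (0.41 ± 0.26, adjusted p = 0.241) and read 151, 145, 254 and 156 in forebrain and 173, 206, 258 and 328 in spinal cord. Isl1, a LIM homeodomain factor of motor neurons and also of striatal neurons, fell: it read 1426, 1228, 1221 and 1042 in forebrain and 281, 453, 579 and 551 in spinal cord (-1.41 ± 0.19 SE, adjusted p = 0.000153), and its other probe set gave -1.40. Mnx1, the motor neuron factor HB9, was too dim to be tested (8.6 to 93.1 in forebrain and 43.2 to 139 in spinal cord). Pou3f1, a POU factor of some motor neurons and of cortex, fell (-2.44 ± 0.14 SE, adjusted p = 3.00e-07). Prph, an intermediate filament of neurons with axons outside the cord, read 155, 58.0, 18.0 and 69.5 in forebrain and 644, 639.5, 1569 and 897 in spinal cord (3.51 ± 0.44 SE, adjusted p = 8.63e-05), while 2 other tested probe sets of Prph gave 0.56 and -0.96 with no call. Chodl, a lectin of fast motor neurons, read 234, 259.5, 248 and 345 in forebrain and 784, 821, 2151 and 2140.4 in spinal cord (2.22 ± 0.22 SE, adjusted p = 1.27e-05). Slc18a3, the vesicular acetylcholine transporter, read 67.1, 132, 54.2 and 108 in forebrain and 179, 208, 752 and 749 in spinal cord (1.98 ± 0.43 SE, adjusted p = 0.00344). In the last pair of genes the heterozygous cords were higher than the null cords, with no overlap. Ret (1.28) and Anxa2 (1.72) also rose.

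Glycine transmission genes were higher in spinal cord throughout. All 8 tested genes rose (median 1.34), 5 of them at the median on at least 2 arrays of each tissue. Slc6a5, whose promoter window is printed with that of Tbr1, read 18.8, 37.6, 31.1 and 17.1 in forebrain and 2005, 1700.0, 1649 and 1548 in spinal cord (5.39 ± 0.22 SE, adjusted p = 2.65e-08). Glra1, the receptor subunit of mature glycine synapses, read 13.7, 62.3, 80.3 and 24.4 in forebrain and 661, 885, 856 and 594 in spinal cord (3.78 ± 0.29 SE, adjusted p = 2.57e-06). Slc32a1, which loads glycine and GABA into vesicles, read 719, 562, 754 and 877 in forebrain and 2040.2, 1738, 1839 and 1552 in spinal cord (1.29 ± 0.13 SE, adjusted p = 1.34e-05). No forebrain array reached the lowest spinal cord array in any of these. Slc6a9 (1.39), the glial glycine transporter, Glrb (1.11), the anchoring receptor subunit, and Gphn (0.74), the synaptic scaffold gephyrin, rose too. Glra2, the subunit of immature receptors, rose least (0.41; 1009.9 to 1165 in forebrain and 1378 to 1624 in spinal cord).

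GABA synthesis did not differ to that degree. Gad1, the main GABA-making enzyme, read 3707, 3411, 3359.6 and 3087 in forebrain and 4038, 3658, 3419.5 and 3748 in spinal cord (0.13 ± 0.07, adjusted p = 0.152), and a second, dimmer probe set of Gad1 gave -0.81 (adjusted p = 0.000162 in a fit on every probe set), so the probe sets disagree. Gad2 fell by a small step (-0.31 ± 0.10 SE, adjusted p = 0.034) with overlapping tissues (1259 to 1557 in forebrain and 1021 to 1259 in spinal cord), and its adjusted p was 0.0742, 0.0789 and 0.171 without embryos 1, 3 and 4. Over the list 7 of 13 tested genes rose and 3 fell, or 1 without embryo 1, 3 or 4. The astrocytic GABA transporter Slc6a11 (1.502 ± 0.09 SE, adjusted p = 5.04e-07) and Abat (1.78), which breaks GABA down, rose. Among receptor subunits Gabrb1 (0.70) and Gabra3 (0.37) rose and Gabrb2 fell (-0.52), and Gabbr1 rose (0.28). The adjusted p of Gabbr1 was 0.0805 in limma without the intensity trend, and another Gabbr1 probe set gave -0.52. Another Gabra3 probe set, of higher mean over all 30 arrays, fell (-0.68, adjusted p = 0.00323).

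The vesicular glutamate transporter genes went opposite ways. Slc17a6 (VGLUT2), the transporter of subcortical and spinal neurons, read 1295, 1563, 1277 and 1221 in forebrain and 4791, 4621, 5106 and 4375 in spinal cord (1.81 ± 0.08 SE, adjusted p = 5.47e-08). Slc17a7 (VGLUT1), the transporter of cortical neurons, read 639, 539, 584 and 734 in forebrain and 110.4, 124, 108 and 122 in spinal cord (-2.27 ± 0.19 SE, adjusted p = 4.85e-06). The tissues did not overlap for either gene. Receptor genes also went both ways: Gria4 (1.05), Grik1 (1.35), Grin2d (0.998) and Grm7 (1.16) rose, while Grm2 (-2.30), Gria2 (-0.51) and Grin2b (-0.35) fell. Some probe sets disagreed. Other sets gave -0.47 and 0.12 for Gria2, -1.17 to 0.60 for Grin2b, -0.44 and 0.19 for Grm7, and -0.16 for Grin2d. In all, 8 of 19 tested genes rose and 6 fell, beside 22.0% and 18.4% of all tested genes. Slc17a8 was not analysed here.

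**Figure D3:**
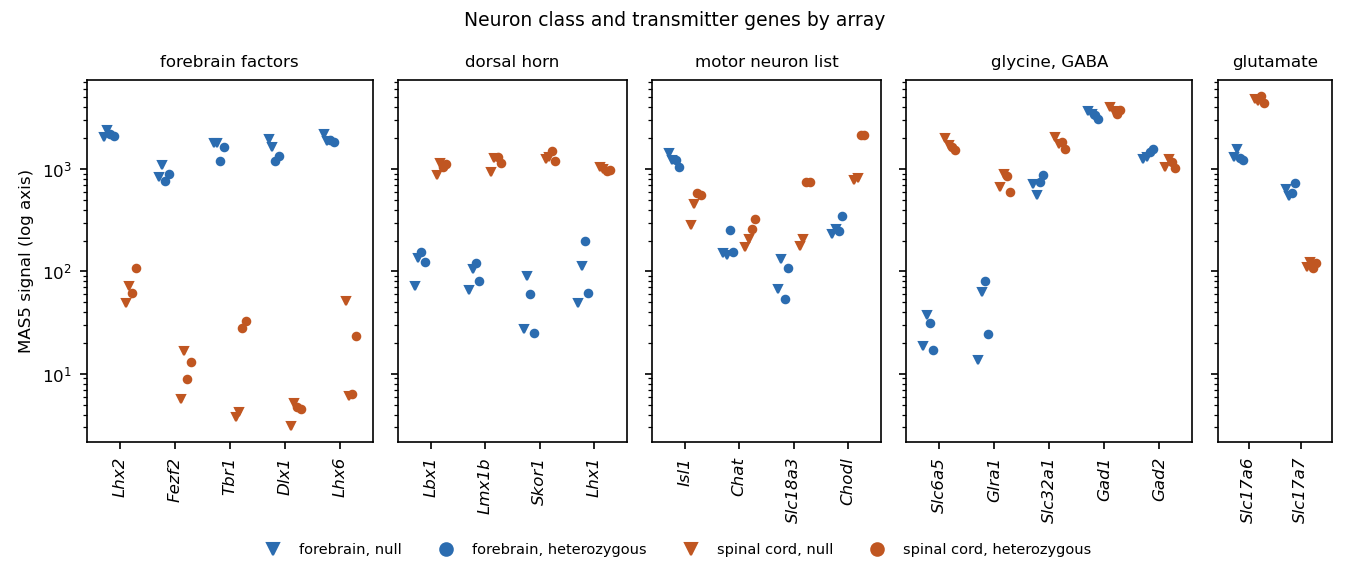
MAS5 signal (log axis) of neuron class and transmitter genes on the 8 arrays, blue forebrain and orange spinal cord, triangles null and circles heterozygous. Levels are to be compared within a gene. The forebrain factors and Slc17a7 are higher in forebrain, the dorsal horn genes, Slc6a5, Glra1, Slc32a1 and Slc17a6 higher in spinal cord, and Chat, Gad1 and Gad2 overlap.

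Cholinergic and monoamine genes gave 4 rises and 4 falls among 16 tested, close to the shares over all genes. Ache, which breaks acetylcholine down, read 563, 468, 515 and 406 in forebrain and 1334, 1522, 1623 and 1651 in spinal cord (1.62 ± 0.13 SE, adjusted p = 2.46e-06). The nicotinic receptor subunit Chrna3 rose (0.97 ± 0.16 SE, adjusted p = 0.00074), the muscarinic receptor Chrm1 fell (-0.93 ± 0.13 SE, adjusted p = 0.000225), and Chrna5 was too dim to be tested (19.0 to 107 in forebrain and 44.8 to 130.0 in spinal cord). Slc18a2, the vesicular monoamine transporter, read 350.0, 302, 292 and 278 in forebrain and 61.0, 66.4, 61.5 and 33.3 in spinal cord (-2.19 ± 0.35 SE, adjusted p = 0.000505), and the spinal cords were all below the forebrains. The serotonin receptors Htr2c (0.71) and Htr3a (-0.49) went opposite ways.

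Neuropeptide genes leaned towards the spinal cord. Of 20 tested, 10 rose and 3 fell, beside 22.0% and 18.4% of all tested genes. Tac1, the precursor of substance P, read 1612, 1519.9, 1772 and 1663 in forebrain and 2343, 3028, 3052 and 3552 in spinal cord (0.85 ± 0.10 SE, adjusted p = 3.92e-05). Penk, the enkephalin precursor, read 764, 761, 633 and 647 in forebrain and 2688, 2921, 2189 and 2499.5 in spinal cord (1.85 ± 0.08 SE, adjusted p = 5.28e-08). Cartpt read 218, 206, 236 and 245 in forebrain and 1162, 1207, 1287 and 1229 in spinal cord (2.36 ± 0.12 SE, adjusted p = 1.37e-07). The cords were above the forebrains without overlap in all 3, but a Tac1 probe set of higher mean over all 30 arrays gave 0.02 with no call. Gal (1.47) and Adcyap1 (1.43) rose as well. Nts, neurotensin, fell (-1.72 ± 0.13 SE, adjusted p = 2.38e-06; 1898 to 2689 in forebrain and 559.7 to 835 in spinal cord). Sst, somatostatin, did not pass (0.18, adjusted p = 0.0611; 2964 to 3296 in forebrain and 3216 to 3913 in spinal cord), with adjusted p = 0.0375 in the fit without the embryo block.

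Neurofilament genes, whose proteins widen axons as they mature, rose. Nefl, the light neurofilament, read 3217, 3909, 2727 and 3437 in forebrain and 12905, 13868, 18947 and 16271 in spinal cord (2.21 ± 0.12 SE, adjusted p = 2.29e-07). Nefm, the medium one, read 1163, 1511, 1313 and 1447 in forebrain and 5590.0, 4946, 12139 and 11262 in spinal cord (2.52 ± 0.19 SE, adjusted p = 1.92e-06). Nefh, the heavy one, read 207, 58.1, 209 and 164 in forebrain and 1714, 1662, 2043 and 2010.3 in spinal cord (3.54 ± 0.21 SE, adjusted p = 4.17e-07). In Nefm the heterozygous cords were above the null cords, and all cords were above all forebrains. The presynaptic and neuronal surface genes Snap25 (1.06) and Thy1 (1.82) rose. Members that fell were Tubb3 (-0.75), Map2 (-0.28), Mapt (-0.20) and Stmn2 (-0.18), the tubulin, microtubule and growth cone genes of neurons. Gap43 (0.11), Ina (0.11) and Syt1 (0.04) had no call. Over the list 14 of 21 tested genes rose and 4 fell, or 2 without embryo 2.

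Sncg and Prph, which were among the strong rises, are also genes of sensory ganglia, which lie beside the cord. Of 15 sensory ganglion genes with a probe set 9 were tested, and 7 rose and none fell, beside 22.0% of all tested genes that rose. Of the 9, 5 reached the array median on at least 2 arrays of each tissue. Their summed signal was 3597, 3560.0, 3393 and 3511 in the forebrains and 8187, 8897, 9389 and 8577 in the cords. Pou4f1 (1.94 ± 0.16 SE, adjusted p = 4.32e-06) and Ngfr (1.86) rose, and Drgx rose most (3.93; 47.5 to 214 in forebrain and 2255 to 2494 in spinal cord). Pou4f1 and Drgx are made by dorsal horn neurons too. Of the markers closer to ganglion neurons alone, Avil read 30.1, 18.1, 21.8 and 13 in forebrain and 288, 366, 424 and 31.5 in spinal cord (2.62 ± 0.69 SE, adjusted p = 0.011), with the cord of embryo 4 far below the other cords. Without embryo 1, 2 or 3 the adjusted p of Avil was 0.0525, 0.0601 and 0.0804. Scn11a (49.1 to 148 in forebrain and 117 to 411 in spinal cord) rose by 1.48 and Pirt by 1.32, each with overlap, and Pirt had an adjusted p of 0.0615 without embryo 2. The pain channels Scn10a (17.9 to 81.6 in forebrain and 110.0 to 187 in spinal cord) and Trpv1 (89.4 to 133 in forebrain and 93.7 to 175 in spinal cord) were too dim to be tested. Dpysl4 rose by 0.37 on its probe set of highest mean, but another fell (-0.39, adjusted p = 0.00922), so its direction turns with the probe set. The part of ganglion tissue in the rise of Sncg, Prph, the neurofilaments or other genes of the motor neuron list was not tested.

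Most astrocyte genes rose: 19 of 25 tested rose and 3 fell (median 1.52), and 22 of the 25 reached the median on at least 2 arrays of each tissue. Aqp4, the water channel of astrocyte endfeet, read 270.1, 214, 303 and 301 in forebrain and 4864, 3854, 3387 and 4121 in spinal cord (3.82 ± 0.12 SE, adjusted p = 4.54e-09). Gfap, their intermediate filament, read 441, 392, 395 and 512 in forebrain and 3773, 2775, 2864 and 3528 in spinal cord (2.85 ± 0.09 SE, adjusted p = 4.90e-09). Gja1, connexin 43, read 1565, 1408, 1169 and 1115 in forebrain and 9837, 8980.2, 7475 and 7472 in spinal cord (2.67 ± 0.06 SE, adjusted p = 7.73e-10). The cords were above the forebrains in every embryo for all 3. Aldh1l1, a folate enzyme used to mark astrocytes, rose by a smaller step (0.96 ± 0.09 SE, adjusted p = 6.93e-06). Aldoc (2.22), Sparcl1 (2.56), the glutamate transporters Slc1a3 (1.36) and Slc1a2 (1.27), Apoe (2.45) and Agt (3.98) rose too.

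The astrocyte list members that fell were the nuclear factor I genes, which switch on glial genes in progenitors and are also strong in young cortical neurons. Nfix read 19029.7, 19915, 20461 and 19432 in forebrain and 5627, 5619, 5779 and 4875 in spinal cord (-1.85 ± 0.06 SE, adjusted p = 4.08e-09). Nfib read 6167, 6574, 6648 and 7352 in forebrain and 1868, 2145, 2217 and 2248 in spinal cord (-1.65 ± 0.06 SE, adjusted p = 1.80e-08). Nfia fell least (-0.56; 2529 to 3189 in forebrain and 1620.3 to 2139 in spinal cord). Sox9, another glial factor, had no call (-0.12, adjusted p = 0.742; 215 to 452 in forebrain and 229.7 to 386 in spinal cord).

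Oligodendrocyte genes gave mixed results, and the probe sets of Mbp disagreed. Of 13 tested myelin list genes 6 rose and none fell. Cnp, an enzyme of myelinating cells, read 555, 561, 696 and 737 in forebrain and 1823, 1359, 3329.5 and 3719.8 in spinal cord (1.87 ± 0.16 SE, adjusted p = 4.17e-06), higher in every cord than in any forebrain and highest in the heterozygous cords. Mbp, a major myelin protein, had no call on its probe set of highest mean (0.23 ± 0.17, adjusted p = 0.311), which read 412, 635, 694 and 536 in forebrain and 641, 597, 573 and 849.9 in spinal cord. Mbp has 7 other probe sets here, and all 7 gave a positive difference, from 0.69 to 3.88. The one with the largest difference read 38.8, 14.3, 156 and 206 in forebrain and 249.7, 341, 4852 and 6458 in spinal cord (3.88 ± 0.36 SE, adjusted p = 9.80e-06 in the fit on every probe set). On that probe set the null cords were below the heterozygous cords and still above all forebrains. Mag had no call (0.52, adjusted p = 0.123), with adjusted p = 0.0345 without embryo 3. Cldn11 (3.46; 10.3 to 78.8 in forebrain and 381 to 639 in spinal cord) and Gsn (2.55), which are made by meningeal and other cells as well, rose in null and heterozygous embryos. Mal (1.36), Aspa (1.12) and Tspan2 (0.93) rose too, but another Tspan2 probe set gave -0.42 with no call.

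Precursor genes had 6 rises and 1 fall among 12 tested. Pdgfra, the growth factor receptor of oligodendrocyte precursors that fibroblasts also carry, read 92.2, 19.7, 484 and 484 in forebrain and 453, 914, 1232 and 1402 in spinal cord (2.41 ± 0.44 SE, adjusted p = 0.00111). The null forebrains were lowest and the heterozygous cords highest, and the tissues overlap. Cspg4 (NG2) read 272, 222, 436 and 429.6 in forebrain and 370.4, 361, 691 and 709 in spinal cord (0.61 ± 0.14 SE, adjusted p = 0.00571), again highest in the heterozygous cords. Gpr17, a receptor of cells about to differentiate, read 48.4, 81.4, 241 and 253 in forebrain and 22.4, 15.5, 1838 and 1853 in spinal cord and had no call (0.82, adjusted p = 0.367). Lhfpl3 (0.95) and Bcan (0.90) rose in all 4 embryos, and Ptprz1, which radial glia make as well, fell (-0.93; 4582 to 4977 in forebrain and 2045 to 2757 in spinal cord).

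**Figure D4:**
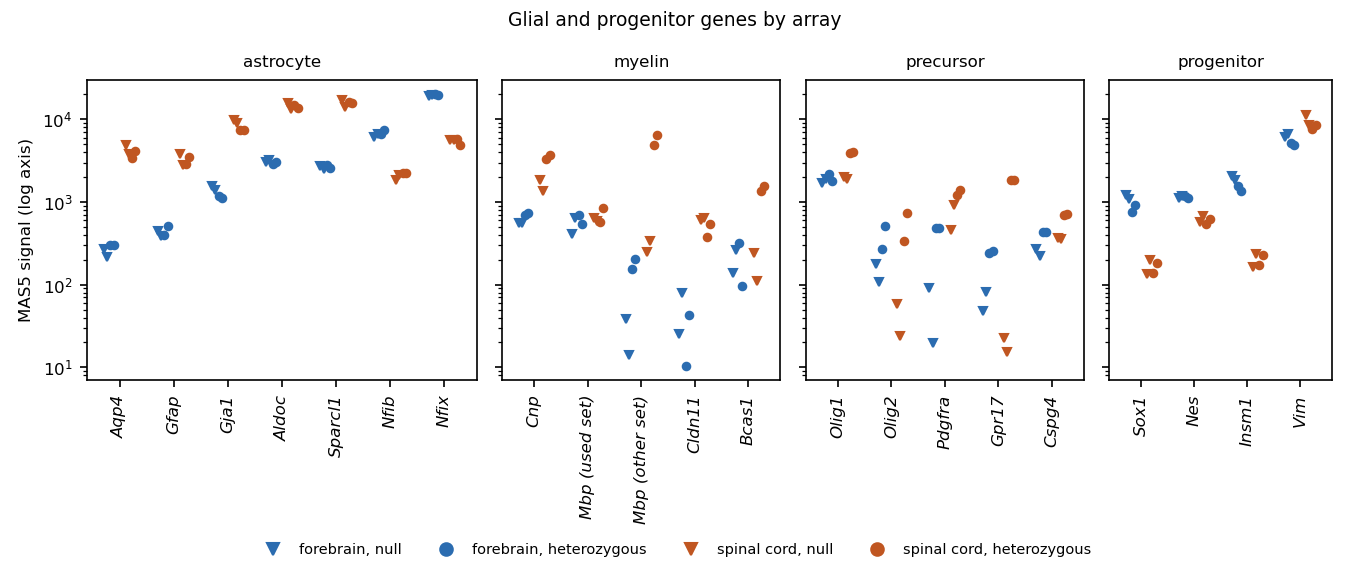
MAS5 signal (log axis) of glial and progenitor genes on the 8 arrays, blue forebrain and orange spinal cord, triangles null and circles heterozygous. The 2 Mbp columns are the probe set of highest mean and the one of largest difference. Astrocyte genes other than Nfib and Nfix are higher in every cord, and Gpr17 and the second Mbp probe set are highest in the heterozygous cords.

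Neural stem and progenitor genes were split between the tissues, with 7 rises and 6 falls among 19 tested. Over all tested genes 22.0% rose and 18.4% fell. Sox2, a factor of stem cells, fell by a small step (-0.44 ± 0.09 SE, adjusted p = 0.00213; 2308 to 2707 in forebrain and 1663 to 1959.5 in spinal cord). Nes, the filament of radial glia, read 1117, 1197, 1166 and 1125 in forebrain and 579.9, 686, 541 and 629 in spinal cord (-0.91 ± 0.10 SE, adjusted p = 4.24e-05), while a dimmer Nes probe set gave 0.25. Hes5, a Notch target, had no call (-0.34, adjusted p = 0.0514), but passed with quantile normalization (adjusted p = 0.0459) and with 75th percentile scaling (0.0471). Insm1, of neuron-producing basal progenitors, read 2059.5, 1832, 1566 and 1352 in forebrain and 164, 234, 175 and 230.2 in spinal cord (-2.99 ± 0.16 SE, adjusted p = 1.85e-07), and Sox1 fell too (-2.503), with cords below forebrains in every embryo. Msi1 fell (-0.95). Vim (0.64) and Dbi (1.12), made by astrocytes and radial glia alike, rose.

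Of 17 tested cell cycle genes 6 fell, 1 rose and 10 had no call (median -0.29). The share that fell was 35.3% beside 18.4% of all tested genes, and the share that rose 5.88% beside 22.0%. Mki67, present in cycling cells, read 799, 985, 773 and 693 in forebrain and 556, 545, 499 and 563 in spinal cord (-0.56 ± 0.12 SE, adjusted p = 0.00358). Top2a, a topoisomerase of dividing cells, fell likewise (-0.45 ± 0.11 SE, adjusted p = 0.0061). Ccnd2, the D-type cyclin of cortical progenitors, fell most (-1.18 ± 0.09 SE, adjusted p = 2.10e-06; 7849.5 to 9234 in forebrain and 2836 to 4522 in spinal cord), and Rrm2 (-0.86) and Pcna (-0.62) followed. Ccne1 was the member that rose (1.25; 251 to 338 in forebrain and 681 to 765 in spinal cord). The summed signal of the list was 20417 to 24670.0 in forebrain and 12783 to 16139 in spinal cord. Ccnb1 was not analysed here.

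Tissue around the nervous system differed as well. Ttr read 29997, 32602, 30694 and 33329 in forebrain and 464, 122, 384 and 173 in spinal cord (-6.89 ± 0.25 SE, adjusted p = 1.07e-08), and its other 3 probe sets gave -7.71, -7.17 and -9.52 on the log2 scale. The other tested genes of the list gave smaller differences: Folr1 (-1.29), Clic6 (-0.82; -2.47 on a second probe set) and Car12 (-0.67) fell, Trpm3 rose (1.002), and Kl was too dim to be tested (4.7 to 60.5 in forebrain and 55.3 to 129 in spinal cord). Car12 had an adjusted p of 0.129, 0.0533 and 0.122 without embryos 1, 2 and 4. Kcne2, a potassium channel subunit of choroid plexus that is not in the list and was named after its values were seen, fell too (-2.50 ± 0.57 SE, adjusted p = 0.00492). In all 4 of 8 tested genes of the list fell. The list's summed signal was 33038, 35977, 33576 and 36465 in the forebrains and 2990.0, 3160.0, 3226 and 2983 in the cords, most of it from Ttr. Choroid plexus lies in the ventricles of the brain, and its part in the fall of other genes was not tested.

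Fibroblast and meningeal genes rose in most cases: 16 of 19 tested rose and none fell (median 1.96), 14 of the 19 at the median on at least 2 arrays of each tissue. Col1a1, a fibrillar collagen chain, read 204, 214, 432 and 240.2 in forebrain and 5267, 6336, 4220.1 and 4455 in spinal cord (4.18 ± 0.20 SE, adjusted p = 7.48e-08). Col3a1 read 903, 901, 762 and 626 in forebrain and 11897, 12023, 5792 and 8262 in spinal cord (3.50 ± 0.12 SE, adjusted p = 1.05e-08), and Col1a2 rose as much (3.50). Ptgds, the prostaglandin D synthase of the meninges, read 747, 676, 843 and 594 in forebrain and 20443, 17578, 12873 and 13500.1 in spinal cord (4.45 ± 0.12 SE, adjusted p = 1.48e-09). Every cord was above every forebrain, and for each of the genes with 4 values per tissue here the null cords were above the heterozygous ones. Igf2 (2.66) and Dcn (2.30) rose too. The summed signal of the list was 10851 to 11399 in forebrain and 77681, 78201, 46832 and 58843 in the cords. The share of meninges left on the tissue, and its part in the rises of Pdgfra, Cldn11, Gsn, Aldh1a2 or Crabp2, was not tested.

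Few genes of muscle and cartilage were bright enough to be tested. Of 21 skeletal muscle genes 5 were tested and 1 rose, close to the 22.0% of all tested genes that rose. Acta1, skeletal actin, was that gene (0.60 ± 0.21 SE, adjusted p = 0.0418; 236 to 406 in forebrain and 270.1 to 768 in spinal cord), and its adjusted p was 0.0556, 0.216 and 0.0672 without embryos 2, 3 and 4. Myh3, an embryonic myosin (9.0 to 35.6 in forebrain and 13.1 to 84.3 in spinal cord), and Mylpf, a fast muscle light chain (8.2 to 46.6 in forebrain and 35.5 to 181 in spinal cord), were too dim to be tested. The list's summed signal was 2097, 1851, 2616 and 2412 in the forebrains and 2203, 2690.0, 2981 and 3369 in the cords. Of 17 cartilage and bone genes 7 were tested and 3 rose. Among those, Col11a1 (1.63) and Col11a2 (0.85) are collagens that neural and meningeal cells can make, and Col9a3 rose by 0.40, with adjusted p = 0.058 without embryo 1 and 0.0605 without embryo 4. Col2a1 (-0.81, adjusted p = 0.0634) and Acan (0.01, 0.971), the defining cartilage genes, had no call, and Matn1 was too dim to be tested (22.2 to 115 in forebrain and 41.6 to 88.3 in spinal cord). Without embryo 3 Col2a1 fell (-1.16, adjusted p = 0.0192). That list summed to 2532, 2853, 3011 and 2986 in the forebrains and 3590.0, 4108, 4600.0 and 4294 in the cords.

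Of 12 Schwann cell genes 4 were tested and 3 rose: Pmp22 (1.54 ± 0.12 SE, adjusted p = 1.94e-06; 396 to 514 in forebrain and 1306 to 1476 in spinal cord), a myelin protein of nerves that fibroblasts make too, Erbb3 (1.24) and Gfra3 (0.47). Gfra3 had an adjusted p of 0.0576, 0.119 and 0.177 without embryos 1, 2 and 4. Egr2, the master factor of myelinating Schwann cells, was too dim to be tested (89.9 to 140.1 in forebrain and 80.0 to 192 in spinal cord). The list summed to 1854, 1708, 1927 and 1720.0 in the forebrains and 3223, 3439, 3222 and 3732 in the cords. Of 9 red cell genes with a probe set 4 were tested and 1 rose, close to the 22.0% of all tested genes. That gene was Alas2 (1.80 ± 0.29 SE, adjusted p = 0.000504, with 116 to 206 in forebrain and 422 to 929 in spinal cord). Hbb-b2, a haemoglobin chain that is not in the list and was named after its values were seen, read 532, 691, 131 and 175 in forebrain and 475, 789, 621 and 569 in spinal cord (0.94 ± 0.32 SE, adjusted p = 0.0358). Its tissues overlapped, and the null forebrains of embryos 1 and 2 were above the heterozygous ones. Another Hbb-b2 probe set read 128, 185, 126 and 117 in forebrain and 479, 245, 184 and 332 in spinal cord. It rose too (1.01, adjusted p = 0.0188 in the fit on every probe set). Its tissue difference was 0.14 larger in null than in heterozygous embryos, against -1.85 on the set used. Hba-a1 (34.9 to 98.4 in forebrain and 30.4 to 163 in spinal cord) and Hbb-bh1 (means 9.4 in forebrain and 11.8 in spinal cord) were too dim to be tested, and Hbb-b1 was not analysed here. The erythroid list summed to 707, 860.0, 950.0 and 764 in the forebrains and 1532, 1555, 1095 and 1684 in the cords.

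Of 15 tested endothelial genes 5 rose and none fell, beside 22.0% and 18.4% of all tested genes. The number that rose was 3 without embryo 1 and 7 without embryo 4. Pecam1 (0.14, adjusted p = 0.71) and Cldn5 (0.08, 0.724), both junction proteins of blood vessels, had no call. Cdh5 rose (0.78 ± 0.24 SE, adjusted p = 0.0225; 161 to 261 in forebrain and 217 to 474 in spinal cord), with an adjusted p of 0.0852 without embryo 1 and 0.121 without embryo 2. Slc2a1, the glucose transporter of brain vessels, rose (0.96 ± 0.10 SE, adjusted p = 2.85e-05), as did Kdr (0.49), Flt1 (1.08) and Abcb1a (0.72). Abcb1a had an adjusted p of 0.0746 and 0.0543 without embryos 1 and 2, and Flt1 one of 0.0526 without the embryo block. Pericyte genes gave 4 rises among 7 tested. Vtn, vitronectin, read 739.6, 575, 559 and 728 in forebrain and 3139, 2983, 1630.2 and 2314 in spinal cord (1.89 ± 0.13 SE, adjusted p = 1.03e-06), and Pdgfrb (1.06), Notch3 (0.97) and Abcc9 (0.68) rose, but Abcc9 had no call and the opposite sign on another probe set (-0.13, adjusted p = 0.7). Rgs5 (0.10, adjusted p = 0.474) and Acta2 (0.02, 0.934) had no call, and another Rgs5 probe set gave -0.67. Flt1 was low in the forebrain of embryo 2, and another Flt1 probe set gave -0.01 with no call. The endothelial list summed to 6914, 7259, 7458 and 7090.0 in the forebrains and 11145, 9902, 9425 and 9005 in the cords, and the pericyte list to 5716, 5648, 5752 and 5647 in the forebrains and 10856, 10709, 7885 and 8451 in the cords.

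Microglia and macrophage genes rose in 8 of 11 tested cases and fell in none (median 1.34), with 10 of the 11 at the median on at least 2 arrays of each tissue. Csf1r, the receptor on which these cells depend, read 1213, 1038, 1254 and 883 in forebrain and 3419.6, 3442, 2483 and 2009 in spinal cord (1.34 ± 0.11 SE, adjusted p = 5.11e-06). Cx3cr1, the fractalkine receptor, rose (0.99 ± 0.18 SE, adjusted p = 0.00123), although the cord of embryo 3, at 368, was below the forebrain of embryo 1. The complement genes C1qa (2.52), C1qb (1.69) and C1qc (1.52) rose together with Ctss (1.77) and Tyrobp (1.36). Aif1 was too dim to be tested (19.7 to 105 in forebrain and 88.0 to 167 in spinal cord). The list summed to 4259, 3971, 4000.0 and 3354 in the forebrains and 11427, 10918, 8760.0 and 7845 in the cords, and the null cords were above the heterozygous ones.

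**Figure D5:**
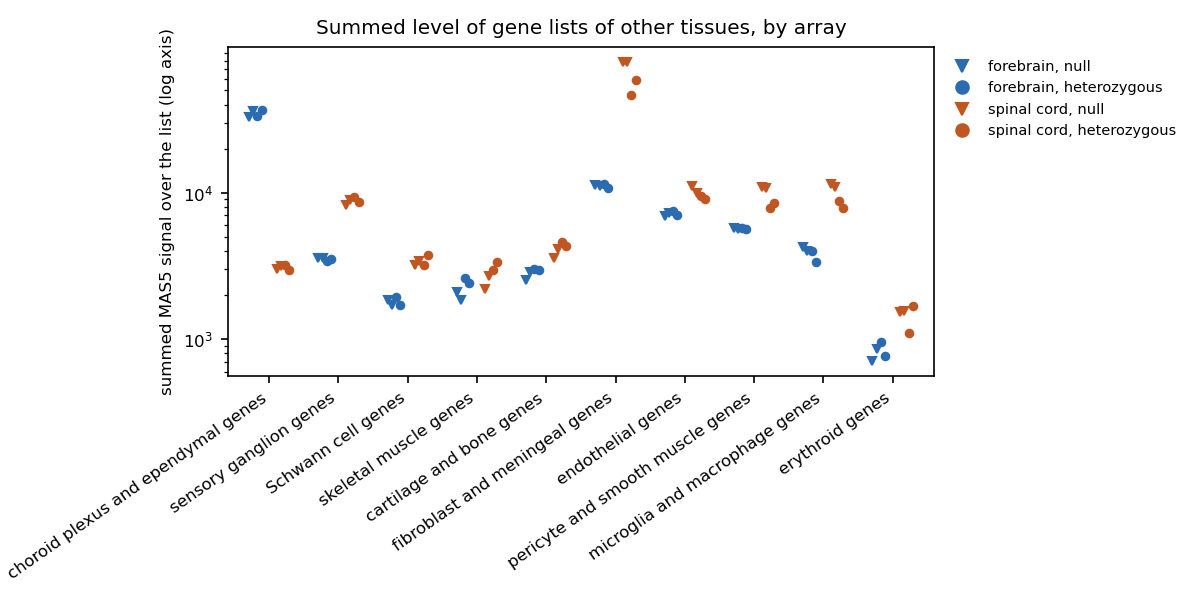
Summed MAS5 signal (log axis) of 10 lists of other tissues on the 8 arrays, blue forebrain and orange spinal cord, triangles null and circles heterozygous. The choroid list is higher in forebrain through Ttr, the fibroblast list is higher in spinal cord and higher in the null than in the heterozygous cords, and the muscle list overlaps.

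Whether the tissue difference depended on the genotype was asked with a tissue-by-genotype term. In limma no gene of 12417 passed (0.0%), the smallest adjusted p was 0.187, and 716 genes had an unadjusted p under 0.05. With 2 embryos of each genotype the term had 2 residual degrees of freedom. The smallest p belonged to Tma16, whose log2 difference was 0.83 in the null and -0.88 in the heterozygous embryos, Zdhhc12 (-1.40 in the null and 0.42 in the heterozygous embryos) and Gpr17 (-1.19 in the null and 2.82 in the heterozygous embryos). The remaining values are a description, since none passed. The means were 0.91 in the null and 3.04 in the heterozygous embryos for Slc18a3, 1.64 in the null and 2.81 in the heterozygous embryos for Chodl and 1.97 in the null and 3.07 in the heterozygous embryos for Nefm. They were -0.20 in the null and 2.95 in the heterozygous embryos for Bcas1, a gene of newly forming oligodendrocytes, and -1.52 in the null and 0.40 in the heterozygous embryos for Olig2. For a Hox and an astrocyte gene they were 7.02 in the null and 6.11 in the heterozygous embryos for Hoxc8 and 4.08 in the null and 3.56 in the heterozygous embryos for Aqp4. When 1 embryo was left out, which leaves a genotype with a lone embryo that is assumed to vary like the others, the number of genes called was between 0 and 8. Without embryo 1 it was 6, and without embryo 2 it was 8, Gpr17 among them both times (adjusted p = 0.00122 and 0.0332). Hoxb3 was among the called genes without embryo 1 (2.88) and without embryo 4 (2.89), and Gpr17 was not among them without embryo 4. Without embryo 3 neither gene was called. With all 4 embryos the genotype term of Hoxb3 was 2.47, from forebrain values of 26.4, 11, 281 and 145. On its other probe set the term was 0.35.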

How the data were processed

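RNA of forebrain and spinal cord from 4 embryos was measured on Affymetrix Mouse Genome 430 2.0 arrays, per the labels. The deposited values are MAS5 intensities on a linear scale, per the submitters' processing notes, with a 2% trimmed mean of 500 on every array in the values; the genome build was not given in the sources used here, and no detection calls were used. Of 45101 probe sets, 34958 had 1 gene symbol, 932 several and 9211 none. Symbols were updated to RefSeq through the Entrez identifier for 34754 probe sets (Drgx is listed as Prrxl1). For each gene the probe set of highest mean log2 over the 8 arrays was used, and genes reaching the array median on at least 2 arrays were tested.

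Differences of log2(signal + 16) were tested with limma 3.58.1 (R 4.3.3), with the embryo as a fixed block and a trended prior, and p-values were adjusted over all 12417 genes by Benjamini-Hochberg. The titles give both tissues the same embryo number, which is the ground for the pairing; the correlation of same-numbered deviations from group means was 0.031 to 0.033. On simulated arrays of 12417 genes, of which 200 were changed, 69% of changes of 1 log2 unit and 87% of changes of 2 were recovered. There were 5 false calls. In the tissues 5015 genes were called, so the adjustment of p-values differed, and these shares do not measure the sensitivity of the tissue comparison. No counting depth exists for arrays, and the 4 embryos limit the precision. Named genes were Olig1, Olig2, the 10 largest rises and falls, the first 3 genes of each of 31 lists and up to 6 called members of smallest p in each. Some list genes are not reported here. Members and lists were chosen with earlier results of these data known. All 8 tissue arrays share 1 hybridization date in the labels. Alternatives were the pairing, the pseudocount, filter, scaling, probe set, prior and single embryos left out; counts per list without 1 embryo were added after the data had been seen.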

Additional observations from a re-analysis of the deposited data

Results flagged for a closer look

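In 450 groups of 4 arrays (named genes and list sums, each tissue apart), the highest or lowest array was set against the range of its group by Dixon's ratio with its 95% critical value. In 26 of them, 5.78%, 1 array stood apart, where chance gives about 1 in 20. The forebrain of null embryo 2 stood apart in Col2a1 429 against 201 to 230.2, Flt1 46.4 against 216 to 226, Mal 54.3 against 207 to 226, Sncg 57.0 against 6.2 to 12.9 and summed level of forebrain patterning factors 12810.0 against 11244 to 11458 in the others. The forebrain of heterozygous embryo 3 stood apart in Aldh1a2 171 against 15.7 to 32.2, Chat 254 against 145 to 156, Col1a1 432 against 204 to 240.2, Pirt 167 against 63.8 to 69.8 and summed level of glycine transmission genes 6539 against 5224 to 5446 in the others. The forebrain of heterozygous embryo 4 stood apart in Abcb1a 126 against 194 to 204, Col11a2 337 against 237 to 245 and Ret 150.4 against 273 to 293 in the others.

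The spinal cord of null embryo 1 stood apart in Crabp1 2238 against 1766 to 1816 and summed level of astrocyte genes 122550.0 against 106998 to 108739 in the others. The spinal cord of null embryo 2 stood apart in Lhx8 28.1 against 2.8 to 4.0 and Notch3 2159 against 1678 to 1699.8 in the others. The spinal cord of heterozygous embryo 3 stood apart in Cx3cr1 368 against 675 to 724, Gal 1216 against 774 to 809, Irx5 306 against 373 to 380.1 and Top2a 592 against 651 to 655 in the others. The spinal cord of heterozygous embryo 4 stood apart in Folr1 226 against 143 to 156, Gabbr1 9483 against 8572 to 8673, Mal 549.9 against 385 to 401, Pmp22 1476 against 1306 to 1328 and Slc18a2 33.3 against 61.0 to 66.4 in the others. No tissue difference differed between the genotypes by the test. No explanation was tested for these values.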

How the results depend on the processing

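Without the replicate block 5046 genes were called in place of 5015, and with the block and a tissue-by-genotype term 5053; among the named genes Sst gained and Flt1 and Gfra3 lost the call without the block, and the pairing changed no other call. When every probe set was tested by itself 8516 of 21660 were called, 4128 higher and 4388 lower, so the share of higher calls was 48.5% against 54.5%. Asking for 1 log2 unit as well left 1086 genes, 796 higher and 290 lower (73.3% higher). The other alternatives with all 4 embryos gave 4137 to 5062 calls, and without 1 embryo 4025 to 4427, with 2215 to 2418 higher and 1810 to 2009 lower. Of 179 called genes named by the rule, 159 kept direction and call under every alternative run, and 15 lost the call under at least 1. Under quantile normalization the sign turned for Acan (-0.011) and the median of cartilage and bone genes (-0.011). With the probe set of highest mean over all 30 arrays the sign turned for Flt1 (-0.012), Gabra3 (-0.68), Prph (-0.96) and Tspan2 (-0.42). Without probe sets ending in _x_at or _s_at the sign turned for Abcc9 (-0.13) and Dpysl4 (-0.39). Without 1 embryo the sign of genes near 0 turned: Acan (-0.0291 to 0.0862), Acta2 (-0.188 to 0.232), Cldn5 (-0.0622 to 0.268), Drd2 (-0.0323 to 0.145), Pecam1 (-0.0306 to 0.372), Rgs5 (-0.00446 to 0.202). The genotype term called 1 gene without probe sets ending in _x_at or _s_at (Abce1) and 0 to 8 without 1 embryo. No other list median changed sign, and none moved by more than 1 SD. The cause of these shifts was not tested. Dim probe sets and the number of embryos limit which small differences can be resolved.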
